A study of Homo sapiens with 16 samples.

Results

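The microRNA (miRNA) mir1260a-5p was represented by 2 of the 16 libraries in a RISC-trap experiment on HEK 293, an established cell line of human embryonic kidney origin. Its libraries were taken by the miRNA named in their titles, replicate 1 and the library titled as its replicate, and were set against the 10 libraries of mir550-3p, mir3613-5p, mir1301-3p, mir1271-5p and mir1180-3p, with 2 libraries for each. The reference was the mean of these 5 miRNAs, and the mir124-3p libraries were left out. All 12 libraries share the cell line, the RISC-trap immunoprecipitation, Trizol extraction and a SOLiD library kit. As far as the labels go, they differ by the miRNA and by the style of the library names. Libraries of mir1260a-5p, mir1180-3p, mir1271-5p and mir3613-5p are named Sample and a number, and those of mir550-3p and mir1301-3p after the miRNA. Whether this marks a batch is not given. The labels do not say how the miRNA was supplied, at what dose, or whether the 2 libraries of a miRNA came from separate cultures. They name no library without a miRNA and no library of input RNA. More mRNA held on RISC and more of that mRNA in the cells therefore cannot be told apart, and neither can more copies per cell and more cells that hold the mRNA. Each p-value below measures the spread between these libraries, which may be technical.

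A miRNA guides an Argonaute protein of the RNA-induced silencing complex (RISC) to mRNAs that pair with its seed, the bases near its 5′ end, and GW182 proteins then recruit the enzymes that shorten and uncap the mRNA. In RISC-trap a dominant-negative GW182 holds the targets on the complex, so that they are precipitated before they decay. The series deals with miRNAs of primates and the genes they may act on in the germinal zone, where neurons are born in the developing brain.

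The mature sequences are shown because the seed is what sets 1 miRNA apart from another in target recognition. They are from RefSeq (GRCh38.p14), 5′ to 3′, with the seed at bases 2 to 8 in capitals. For mir1260a-5p the entry hsa-miR-1260a was used, which carries no arm in its name. It covers bases 14 to 31 of its 73-base hairpin and so lies on the 5′ side.
hsa-miR-1260a: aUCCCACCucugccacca
hsa-miR-1260b: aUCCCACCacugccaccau
hsa-miR-1180-3p: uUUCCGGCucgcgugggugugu
hsa-miR-1271-5p: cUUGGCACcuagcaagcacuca
hsa-miR-1301-3p: uUGCAGCUgccugggagugacuuc
hsa-miR-3613-5p: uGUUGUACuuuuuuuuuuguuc
hsa-miR-550a-3p: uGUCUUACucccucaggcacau
The seed of hsa-miR-1260a differed from those of the 5 reference miRNAs. It was shared with hsa-miR-1260b, a miRNA that no library here represents. Counted from 1 at the 5′ end of hsa-miR-1260a, hsa-miR-1260b carries the substitution U9A, which lies just past the seed, and 1 further base at its 3′ end. The mature hsa-miR-1260a maps to chr14:77266231-77266248 on the plus strand. A transcript that pairs with its whole seed holds the letters GGUGGGA. Transcript sequences were not used here, so the share of the mRNAs below that hold them was not counted.

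Total counts lay between 7612758 and 17972321 over the 12 libraries, and were 11676390 and 11242721 for replicate 1 and replicate 2 of mir1260a-5p. A count of 0 allowed up to 0.257 and 0.267 CPM in these libraries, from 3 counts of the total and for counting error alone. CPM are counts brought to a common library size with edgeR's TMM factors for the 12 libraries, and are not divided by mRNA length. The 9 markers listed for the cell line had a summed level of 1329 and 1865 CPM in the mir1260a-5p libraries, against 1238 to 2325 CPM in the other libraries. Of these, VIM stood at 542 and 919 CPM and NEFL at 475 and 633 CPM, and the rest are not given singly. Of the 10 blood markers 7 passed the filter on low counts, and their summed level was 9.56 and 13.4 CPM against 7.57 to 20.7 CPM in the other libraries. The 9 neuron and glia markers summed to 102 and 87.5 CPM against 77.2 to 141 CPM. Of 7 liver and keratinocyte markers 6 passed the filter. They summed to 125 and 162 CPM against 151 to 210 CPM, so that replicate 1 lay below all other libraries.

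In the mir1260a-5p libraries 38 of 17658 genes tested were called higher (0.215% of all genes) and 0 were called lower (0%), by edgeR's quasi-likelihood test at a Benjamini-Hochberg adjusted p under 0.05. All adjusted p-values of genes below are from this test. At an unadjusted p under 0.05 the counts were 661 higher (3.74%) and 280 lower (1.59%), and DESeq2 called 60 higher and 12 lower. The 38 genes took 1.03% and 1.07% of all counts in the mir1260a-5p libraries, and between 0.208% and 0.291% in the other 10. They were chosen from these same counts, so the larger share follows from the choice. Their log2 fold changes ran from 1.22 to 3.55 with a median of 2.07. In 35 of the 38 both mir1260a-5p libraries lay above all 10 others, which held for 0.923% of all genes, and the exceptions were LCE2C, GK2 and SYTL2. The 24 genes named by rule below were picked from these 35, so their lack of overlap was set by the choice. The same comparison made for each of the other miRNAs called 16 genes higher for mir3613-5p (0.0906%), 107 for mir1271-5p (0.606%), 212 for mir550-3p (1.2%), 339 for mir1180-3p (1.92%) and 2039 for mir1301-3p (11.5%). Lower calls in these comparisons numbered 0 for mir3613-5p and mir1271-5p (0%), 54 for mir550-3p (0.306%), 27 for mir1180-3p (0.153%) and 776 for mir1301-3p (4.39%).

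**Figure D1:**
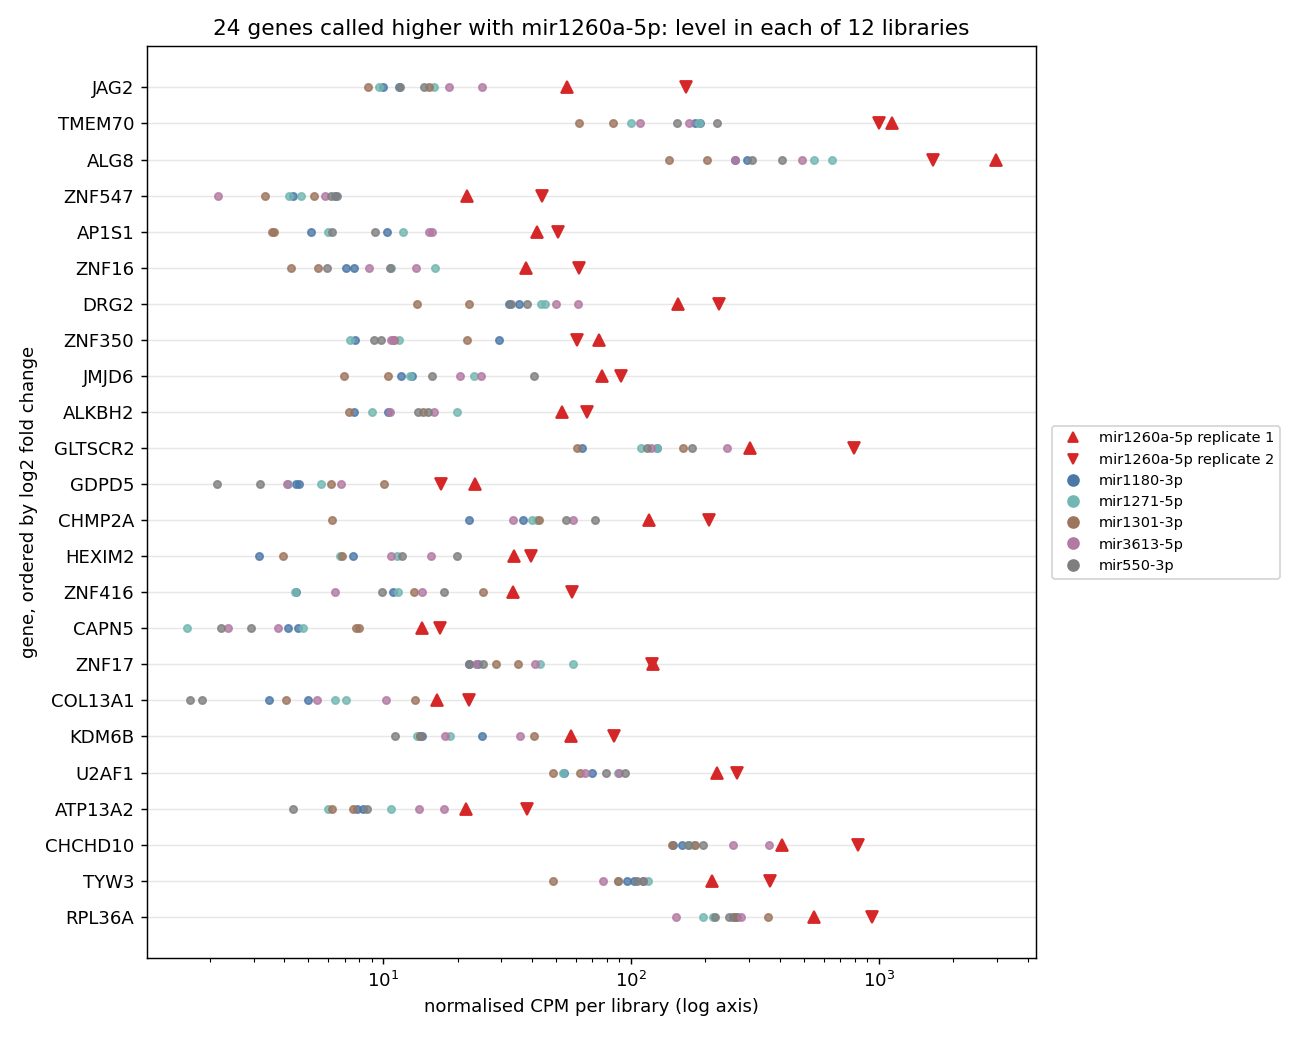
Normalised CPM (log axis) of 24 genes called higher with mir1260a-5p in each of the 12 libraries, with red triangles for its 2 libraries and circles coloured by miRNA for the other 10. Both triangles lie to the right of all circles in every gene shown, which the rule for naming these genes required. JAG2 has 55.4 and 167 CPM against at most 24.97 CPM elsewhere.

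The gene with the lowest p was TMEM70, whose product helps to assemble the mitochondrial ATP synthase. It stood at 1129 and 999.9 CPM with mir1260a-5p, and at 61.9 (lowest), 162 (median) and 223 CPM (highest) in the other 10 libraries. The mir1260a-5p libraries were alike and well clear of the rest. The log2 fold change was 2.94 ± 0.25 (SE; adjusted p = 1.3e-05). ALG8, which adds a glucose to the lipid-linked sugar chain before it is moved to proteins in the endoplasmic reticulum, stood at 2971 and 1654 CPM. The other libraries lay between 142 and 650 CPM with a median of 301 CPM. Replicate 1 of mir1260a-5p was well above replicate 2. Its log2 fold change was 2.81 ± 0.25 (adjusted p = 2.0e-05).

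JAG2, a ligand that cells present to the Notch receptors of their neighbours, in a pathway that governs the choice between progenitor and neuron, had the largest change among the genes named by rule. It stood at 55.4 and 167 CPM against 8.73, 13.2 and 24.97 CPM (lowest, median and highest) in the other 10 libraries. Replicate 2 was the higher of the pair, and both were above all others, as the naming rule required. The log2 fold change was 3.03 ± 0.31 (adjusted p = 8.9e-05), and it was 3.56 without replicate 1 of mir1260a-5p and 2.02 without replicate 2, called in either case. DRG2, a conserved GTP-binding protein, stood at 155 and 226 CPM against 13.7, 36.7 and 61.1 CPM. Its log2 fold change was 2.44 ± 0.24 (adjusted p = 6.2e-05).

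Of the genes named by rule, 3 others encode proteins of vesicles, membrane scission or lysosomes. AP1S1, the small sigma subunit of the AP-1 clathrin adaptor, stood at 42.0 and 51.0 CPM, against 3.57, 7.77 and 15.7 CPM (log2 fold change 2.56 ± 0.31, adjusted p = 0.00053). CHMP2A, a subunit of the ESCRT-III membrane scission machine, stood at 118 and 206 CPM against 6.24, 40.9 and 71.4 CPM (2.07 ± 0.40, adjusted p = 0.033). ATP13A2, a cation transporting ATPase of lysosomes, stood at 21.7 and 38.2 CPM against 4.32, 8.07 and 17.6 CPM (1.80 ± 0.33, adjusted p = 0.025). That none of the 3 overlapped the other miRNAs was required by the naming rule. Among genes outside the naming rule, chosen after their values were seen, SEC61B of the protein channel of the endoplasmic reticulum rose by 1.51 and was not called without replicate 1 of mir1260a-5p (1.15).

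A further group acts on RNA or in translation. U2AF1, the splicing factor subunit that reads the end of an intron, stood at 222 and 267 CPM against 48.5, 67.6 and 95.1 CPM, a log2 fold change of 1.81 ± 0.25 (adjusted p = 0.0018). JMJD6, an oxygenase that hydroxylates lysines of splicing factors, stood at 76.2 and 91.2 CPM against 6.95, 14.4 and 40.6 CPM (2.33 ± 0.30, adjusted p = 0.0010). GLTSCR2 (now NOP53), a nucleolar factor of ribosome assembly, stood at 302 and 796 CPM against 60.6, 124 and 245 CPM (2.11 ± 0.35, adjusted p = 0.0084). In the last of these replicate 2 was far above replicate 1, and without replicate 2 the value was 1.25 and not called. TYW3, which modifies a base of phenylalanine tRNA, rose by 1.62 ± 0.27 (213 and 364 CPM against at most 117), and was not called without replicate 2 (1.19). RPL36A, a protein of the large ribosomal subunit, rose by 1.62 ± 0.26 (546 and 944 CPM against at most 358), and was not called without replicate 2 (1.17). The readthrough entry RPL36A-HNRNPH2 was called too (1.35 ± 0.26). It overlaps RPL36A and the entries can share reads, while HNRNPH2 itself stood at 0.24 (adjusted p = 1.0). The call of RPL36A-HNRNPH2 ended without replicate 2 of mir1260a-5p (0.92), either mir1180-3p library (1.32 and 1.40), replicate 1 of mir1301-3p (1.32), replicate 1 of mir3613-5p (1.27), and replicate 1 or 2 of mir550-3p (1.37 and 1.34).

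Genes that act in the nucleus on DNA and transcription were led by zinc finger genes of the ZNF series, most of whose products bind DNA and many of which repress transcription. ZNF17 stood at 123 and 122 CPM against 22.2, 26.9 and 58.5 CPM, almost the same level in the 2 libraries (1.98 ± 0.25, adjusted p = 0.00094). ZNF16 stood at 37.7 and 61.7 CPM against 4.26, 8.23 and 16.2 CPM (2.54 ± 0.30, adjusted p = 0.00051). ZNF547 stood at 21.8 and 43.8 CPM against at most 6.51 CPM (2.76 ± 0.35), and was not called without replicate 2 of mir1260a-5p (2.18). ZNF350, a repressor that binds BRCA1, stood at 74.4 and 60.7 CPM against at most 29.3 CPM (2.44 ± 0.34), and was not called without replicate 1 (2.23). ALKBH2, which removes alkyl groups from DNA bases, stood at 52.8 and 66.4 CPM against 7.28, 12.3 and 19.9 CPM (2.28 ± 0.31, adjusted p = 0.0017). HEXIM2, which holds the elongation factor P-TEFb inactive, stood at 33.8 and 39.5 CPM against at most 19.95 CPM (2.04 ± 0.34, adjusted p = 0.0084). It was not called without replicate 1 (2.10) or replicate 2 (1.93), although its values hardly moved. KDM6B, which removes methyl groups from lysine 27 of histone H3, stood at 57.2 and 85.2 CPM against 11.2, 16.1 and 40.8 CPM (1.85 ± 0.34, adjusted p = 0.023).

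The remaining genes named by rule were CHCHD10, GDPD5, CAPN5, COL13A1 and ZNF416. CHCHD10, a protein between the mitochondrial membranes, stood at 407 and 825 CPM against 146, 176 and 362 CPM (1.69 ± 0.25, adjusted p = 0.0040), and in the fit lacking replicate 2 of mir1260a-5p it was at 1.10 and not called. GDPD5, a membrane phosphodiesterase that promotes the differentiation of motor neurons, stood at 23.4 and 17.1 CPM against at most 10.1 CPM (2.08 ± 0.34, adjusted p = 0.0084), and lost the call without replicate 1 (1.77). CAPN5, a calcium-dependent protease, stood at 14.4 and 17.0 CPM against at most 8.00 CPM (2.03 ± 0.37, adjusted p = 0.020). COL13A1, a collagen that spans the cell membrane, stood at 16.6 and 22.3 CPM against at most 13.5 CPM (1.93 ± 0.38, adjusted p = 0.042). ZNF416 stood at 33.4 and 57.7 CPM against at most 25.4 CPM (2.03 ± 0.39, adjusted p = 0.033). That none of these genes overlapped the other 10 libraries was likewise required by the rule.

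The rises fall apart by how far they lean on single libraries. The 10 genes that were called without each of the 12 libraries in turn were JAG2, TMEM70, ALG8, AP1S1, ZNF16, DRG2, JMJD6, ALKBH2, ZNF17 and U2AF1. A further 16 lost the call only when a mir1260a-5p library was left out. The other 12 of the 38 also lost it without a library of another miRNA, and 6 of these were named by rule. CHMP2A lost it without replicate 1 or 2 of mir1260a-5p (2.37 and 1.62), mir1180-3p (2.15 and 2.01), mir1271-5p (2.08 and 2.07) or mir550-3p (2.12 and 2.04) and without replicate 1 of mir3613-5p (1.97). COL13A1 lost it without the same libraries, in this order at 2.07 and 1.70, 1.99 and 1.88, 1.92 and 1.94, 1.91 and 1.95, and 1.82. ZNF416 lost it without replicate 1 or 2 of mir1260a-5p (2.31 and 1.59) or mir550-3p (1.96 and 2.13) and without replicate 2 of mir1180-3p (1.93), mir1271-5p (1.93) or mir3613-5p (1.90). KDM6B lost it without replicate 1 or 2 of mir1260a-5p (2.06 and 1.54) or mir550-3p (1.89 and 1.82) and without replicate 2 of mir1180-3p (1.79). CAPN5 lost it without replicate 1 or 2 of mir1260a-5p (2.08 and 1.91) or mir1180-3p (2.04 and 2.02) and without replicate 1 of mir3613-5p (1.94) or mir550-3p (1.99). ATP13A2 lost it without replicate 1 or 2 of mir1260a-5p (2.09 and 1.33) or mir1180-3p (1.81 and 1.79), replicate 1 of mir3613-5p (1.73) or replicate 2 of mir550-3p (1.72). The direction of these 6 did not turn in any of these fits, which the naming rule made all but certain. References of fewer miRNAs ended calls as well. Without mir550-3p these were COL13A1 (1.54), KDM6B (1.69), ATP13A2 (1.69), GDPD5 (1.86), CAPN5 (1.88), ZNF416 (2.11) and CHMP2A (2.25). Without mir1180-3p they were ATP13A2 (1.77), KDM6B (1.86), COL13A1 (1.86), ZNF416 (1.89), CHMP2A (1.97) and CAPN5 (2.07). ZNF416 was also not called without mir1271-5p (1.90) or mir3613-5p (1.98), CAPN5 without mir3613-5p (1.93) and ATP13A2 without mir1301-3p (1.72). COL13A1 lost the call with upper-quartile scaling too (1.92, adjusted p = 0.059).

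**Figure D2:**
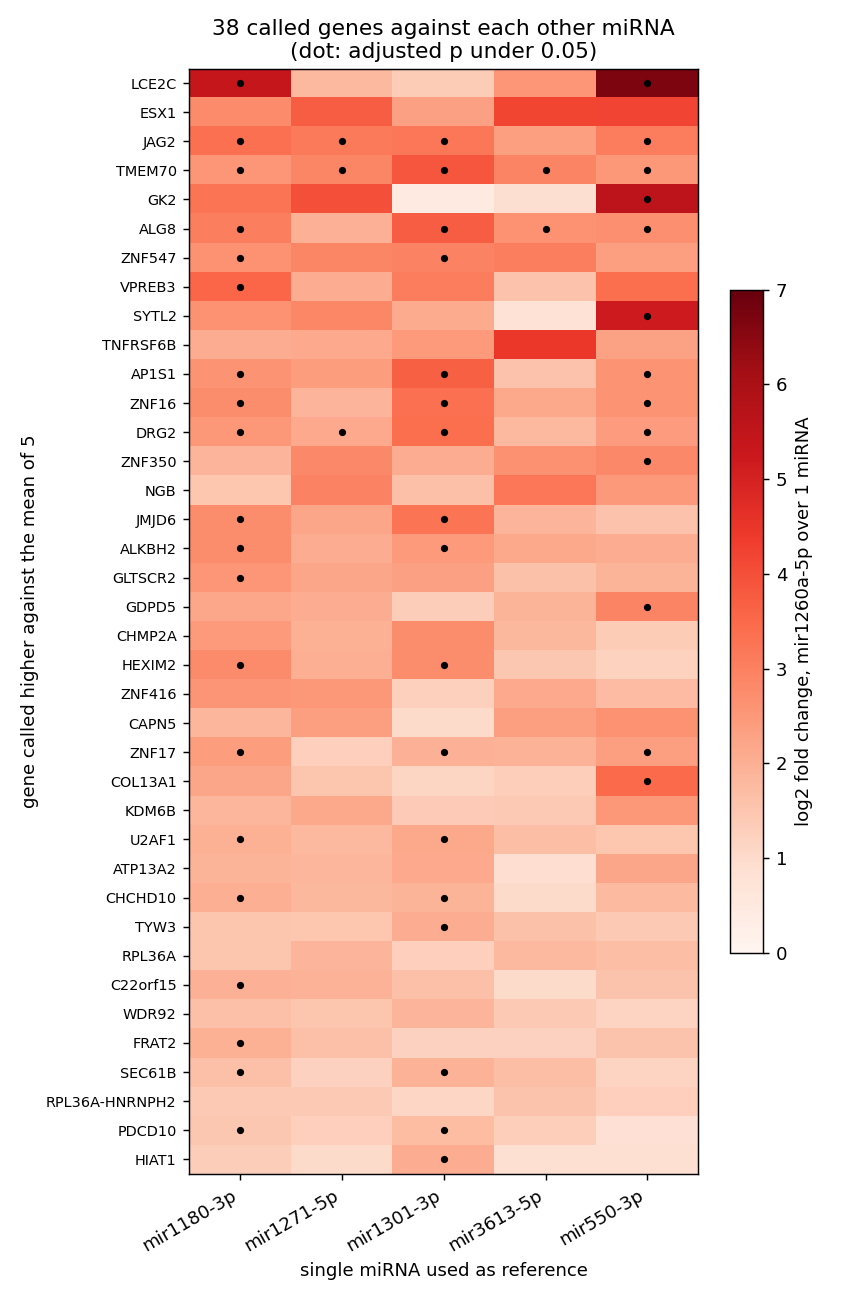
Log2 fold change of the 38 called genes (rows) for mir1260a-5p over each of the 5 other miRNAs taken alone (columns), with a dot where the adjusted p was under 0.05. All cells are above 0. TMEM70 has a dot in 5 columns, and the columns of mir3613-5p and mir1271-5p have 2 and 3 dots.

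Against each of the other miRNAs alone, all 38 genes had a log2 fold change above 0, and the number called ranged from 2 over mir3613-5p to 20 over mir1180-3p. TMEM70 was called against all 5: its log2 fold change was 2.52 ± 0.40 over mir1180-3p, 2.88 ± 0.41 over mir1271-5p, 3.86 ± 0.42 over mir1301-3p, 2.92 ± 0.41 over mir3613-5p and 2.50 ± 0.40 over mir550-3p. JAG2, ALG8 and DRG2 were called against 4. For JAG2 the exception was mir3613-5p (2.36 ± 0.51, adjusted p = 0.21), for DRG2 also mir3613-5p (1.78 ± 0.38, adjusted p = 0.21) and for ALG8 mir1271-5p (1.95 ± 0.40, adjusted p = 0.079). AP1S1, ZNF16 and ZNF17 were called against 3, and 11 of the 38 against none. By reference, 20 of the 38 were called over mir1180-3p alone, 17 over mir1301-3p, 13 over mir550-3p, 3 over mir1271-5p and 2 over mir3613-5p. Among all genes tested, the higher calls in this order numbered 36 (0.204%), 28 (0.159%), 29 (0.164%), 3 (0.017%) and 2 (0.0113%). Over all genes, the lower calls numbered 116 (0.657%), 31 (0.176%), 12 (0.068%), 16 (0.0906%) and 1 (0.00566%) in the same order. These 5 comparisons share the mir1260a-5p libraries, and the 38 genes were chosen by their rise over the mean of the same 5 miRNAs. The next highest miRNA was mir550-3p for 12 of the genes, mir1301-3p and mir3613-5p for 10 each, and mir1180-3p and mir1271-5p for 3 each.

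MIR1260A, the gene of the miRNA, lies within the span of NGB on GRCh38.p14, on the opposite strand, and NGB was itself among the 38 genes. NGB encodes neuroglobin, a globin of neurons. It was picked out after the values were seen, and lies outside the naming rule by its low level. NGB stood at 5.09 and 5.24 CPM (66 and 62 counts) with mir1260a-5p, and at 0.471, 0.939 and 2.18 CPM (lowest, median and highest; 6 to 24 counts) in the other 10 libraries. The mir1260a-5p libraries were close to each other and above all others. The log2 fold change was 2.35 ± 0.39 (adjusted p = 0.0084), and was 2.31 without replicate 1 and 2.33 without replicate 2, not called in either case. The mature miRNA starts 748 bases from the lower end of the 5724-base NGB span; whether that point is exonic was not determined here. The strand setting of the counts is not given, so reads of NGB and reads of the opposite strand cannot be told apart. For 3 more of the 6 miRNAs the locus overlaps a tested gene. In the comparison of each such miRNA with its own 5 others, B9D1 had a log2 fold change of -0.92 ± 0.33 for mir1180-3p (adjusted p = 0.20), ARL10 of -0.01 ± 0.50 for mir1271-5p (adjusted p = 1.0) and DNMT3A of 0.27 ± 0.32 for mir1301-3p (adjusted p = 0.55), and none was called.

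Another stretch of neighbouring genes was called together. VPREB3, C22orf15 and CHCHD10 follow each other directly among the genes of the table, and C22orf15 and CHCHD10 overlap, so that their reads can be shared. C22orf15 rose by 1.61 ± 0.26 (245 and 460 CPM against at most 214), and like CHCHD10 it was not called without replicate 2 of mir1260a-5p (1.09 and 1.10). VPREB3, a gene of immature B cells, stood at 4.32 and 3.55 CPM against at most 1.96 CPM (2.73 ± 0.45), and was not called without replicate 1 (2.53). On either side of the 3 genes, ZNF70 (-0.10) and MMP11 (0.27) were not called.

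**Figure D3:**
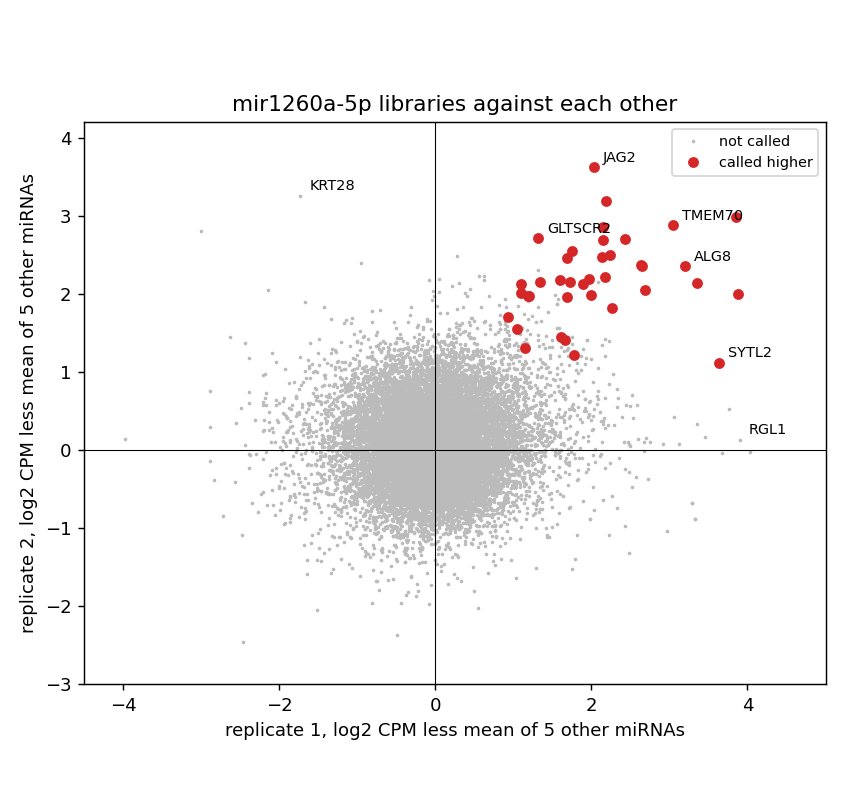
Log2 CPM of each gene less the mean of the 5 other miRNAs, in replicate 1 (x axis) and replicate 2 (y axis) of mir1260a-5p, with the 38 called genes in red. All called genes lie in the upper right, a place that being called higher favours, while the cloud of 17658 genes shows no slope upward. RGL1 is high in replicate 1 alone and KRT28 in replicate 2 alone.

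Over all genes tested, the called ones included, the 2 mir1260a-5p libraries had little in common. Taken as deviations from the average over the 6 miRNAs, their values correlated at -0.12 across genes. That average includes the libraries themselves, which can lower such a value. For the 2 libraries of each other miRNA it was -0.13 for mir1271-5p, 0.18 for mir3613-5p, 0.31 for mir1180-3p, 0.42 for mir550-3p and 0.60 for mir1301-3p. Replicate 2 of mir1260a-5p correlated at 0.38 with replicate 2 of mir3613-5p, its highest value. The highest value of replicate 1 of mir1260a-5p was 0.075, with replicate 1 of mir1271-5p. These are descriptions over 17658 genes, which are not independent. Of these genes 4535 were above the mean of the 5 other miRNAs in both libraries, 4162 below it in both and 8961 above it in one library only. Among 7740 genes with a mean of at least 20 CPM, 15.3% differed by more than 2-fold between the 2 libraries. For the other miRNAs this share lay between 3.75% for mir550-3p and 20.9% for mir1271-5p.

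Of the 10 genes that differed most between the mir1260a-5p libraries, 5 in each direction, 1 was among the 38 called. RGL1, an effector of Ras that activates Ral, reached 2919 CPM in replicate 1 against 213 CPM in replicate 2, and the other 10 libraries ranged from 44.1 to 1593 CPM. RIMBP2 (107 and 12.8 CPM), a scaffold of synaptic active zones, ID1 (120 and 15.8 CPM), an inhibitor of helix-loop-helix factors, and FBXO4 (71.5 and 10.1 CPM) were also higher in replicate 1. KRT28, a hair follicle keratin, had 5.24 CPM in replicate 1 against 171 CPM in replicate 2, with 1.66 to 112 CPM elsewhere. FXYD5 (5.24 and 41.9 CPM), TRAPPC5 (20.7 and 146 CPM), EEF1A2 (8.17 and 55.8 CPM) and TFPI (6.09 and 36.8 CPM) were likewise higher in replicate 2. SYTL2, a partner of the vesicle GTPase RAB27, was that gene (2.70 ± 0.52, adjusted p = 0.044). It stood at 229 and 39.8 CPM, and replicate 2 lay below the 84.8 CPM reached by another miRNA. SYTL2 had a log2 fold change of 0.88 without replicate 1 and was then not called. It was also not called without replicate 1 of mir1271-5p (2.59), replicate 1 or 2 of mir1301-3p (2.70 and 2.70), mir3613-5p (2.72 and 2.67) or mir550-3p (2.62 and 2.82).

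**Figure D4:**
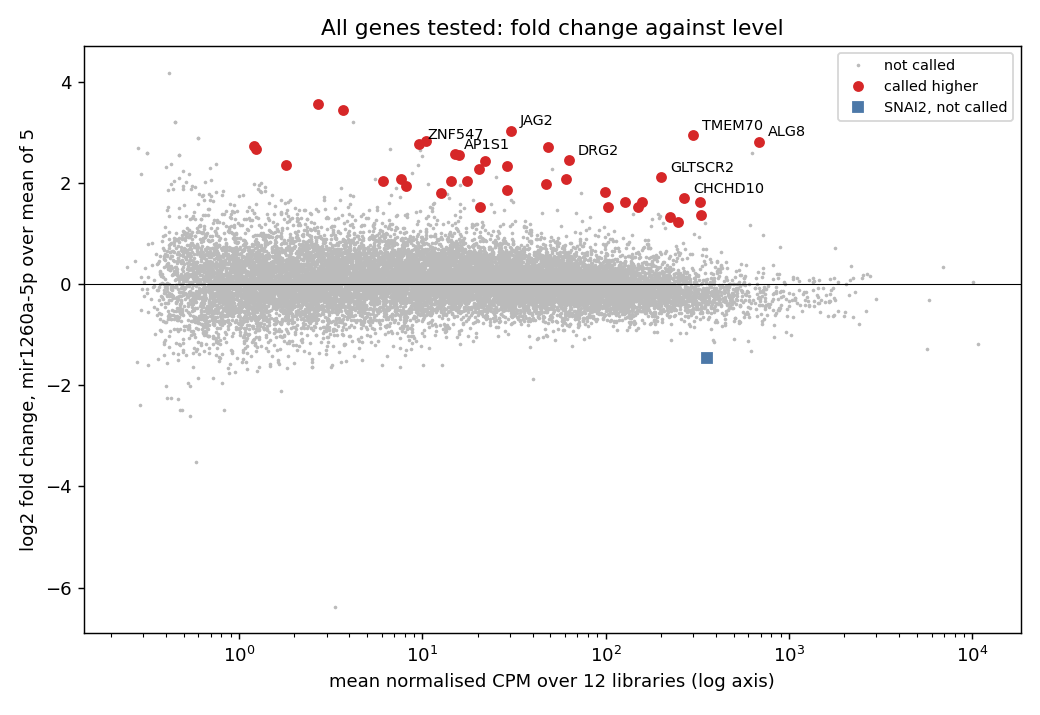
Log2 fold change of mir1260a-5p over the mean of the 5 other miRNAs (y axis) against the mean CPM over 12 libraries (log x axis) for 17658 genes, with the 38 called genes in red. All red points are above 0, and SNAI2, not called, is marked in blue at -1.45.

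No gene was called lower. The 6 genes of lowest p below 0, with both mir1260a-5p libraries below the other 10 (0.555% of all genes), were SNAI2, MBNL1, SH3BGRL2, DCUN1D1, C6orf115 (now ABRACL) and THOC7. SNAI2, a repressor that drives the transition from epithelium to mesenchyme, stood at 98.1 and 136 CPM against 146, 270 and 991 CPM. Its log2 fold change was -1.45 ± 0.31 (adjusted p = 0.077). It was called with DESeq2 (-1.48), without replicate 1 of mir1271-5p (-1.52) and without mir3613-5p in the reference (-1.67). Set against each miRNA alone, SNAI2 was at -3.08 over mir1301-3p and at -0.51 over mir550-3p, the extremes of the 5. Without mir1301-3p in the reference SNAI2 was at -1.05 and not called (adjusted p = 0.43). Of 8 fibroblast and mesenchyme markers 0 were called by edgeR and 1 had an unadjusted p under 0.05. Their median was -0.41 and their summed level 13.3 and 20.4 CPM, against 14.4 to 174 CPM in the other libraries, and their part in the level of SNAI2 was not tested. MBNL1, a splicing regulator, stood at 282 and 273 CPM against at least 334 CPM (-1.12 ± 0.29, adjusted p = 0.22), and SH3BGRL2 at 16.1 and 18.8 CPM against at least 24.5 CPM (-1.24 ± 0.33, adjusted p = 0.27). Both were called by DESeq2 (-1.13 and -1.26). DCUN1D1, C6orf115 and THOC7 lay between -1.06 and -0.89, with an adjusted p of 0.39 to 0.45. Each of these leaned on 1 miRNA of the reference. C6orf115 was at -2.97 over mir1301-3p and between -0.62 and -0.25 over the others, and without mir1301-3p in the reference it was at -0.47. THOC7 was at -2.30 over mir1301-3p and between -0.98 and -0.27 over the others, and at -0.53 without it. DCUN1D1 was at -2.31 over mir3613-5p and between -0.99 and -0.39 over the others, and at -0.75 without it.

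**Figure D5:**
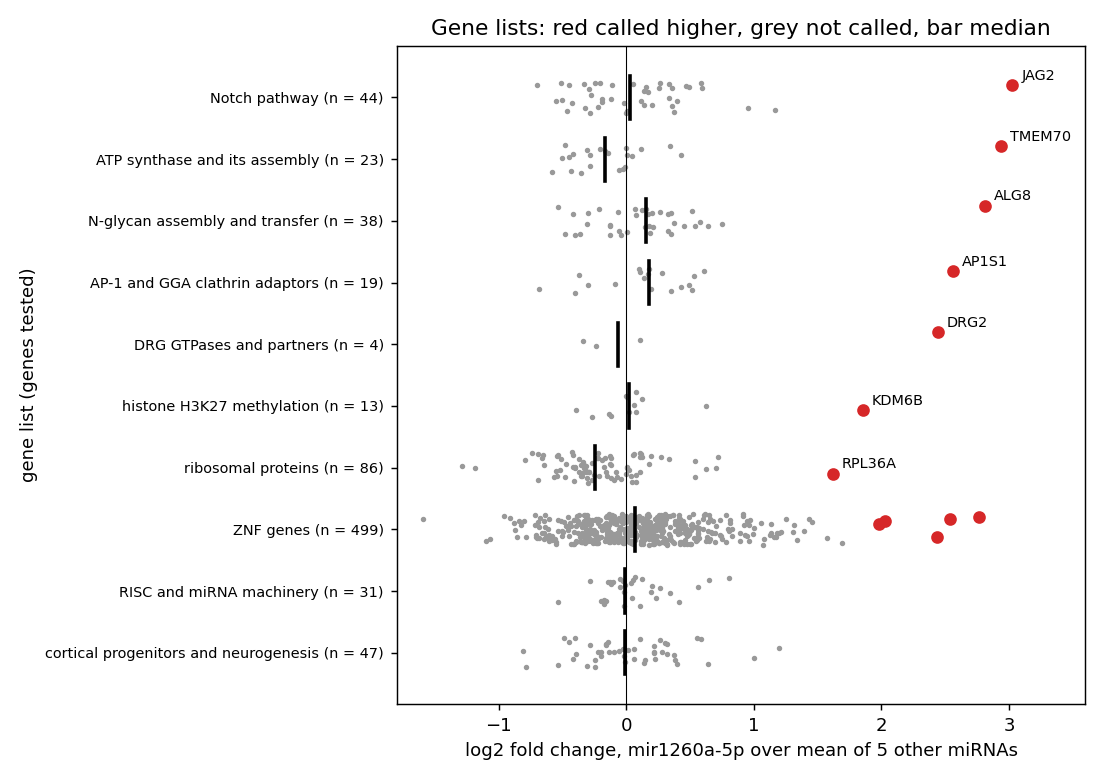
Log2 fold change of mir1260a-5p over the mean of the 5 other miRNAs for the tested members of 10 gene lists, with called genes in red, others in grey and a bar at the median. Each of 7 lists has 1 red point, the ZNF genes have 5 and the last 2 lists have none. The medians lie between -0.24 and 0.18.

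In 7 of the lists of pathway genes the called gene was the sole member called. Over all genes tested 0.215% were called higher and the median log2 fold change was 0.02. The gene lists were chosen with earlier results of these data known. Their shares of called genes therefore cannot be read against that of all genes. JAG2 was the 1 called of 44 Notch pathway genes, whose median was 0.03. MIB1, which ubiquitinates Notch ligands, was at 0.36, and the sugar transferases RFNG and POGLUT1, which modify the receptors, at 0.34 and -0.32. In the nucleus, RBPJ, its cofactor SNW1 and the target HEY1 were at 0.01, -0.19 and -0.55. The members with an unadjusted p under 0.05 besides JAG2 were HES4 (0.95) and LFNG (1.17). TMEM70 was the 1 called of 23 genes of the ATP synthase and its assembly (median -0.16), where the subunit genes ATP5G3, ATP5O, ATP5L, ATP5J and ATP5G2 stood at -0.43, 0.01, -0.45, -0.58 and 0.43, and the inhibitor ATPIF1 at -0.51. ALG8 was the 1 called of 38 genes of N-glycan assembly and transfer (median 0.15). Its neighbours in that route, ALG6, which adds the preceding glucose, and ALG5, which makes the glucose donor, stood at -0.13 and -0.54, and ALG2, RPN2, DAD1 and MAGT1 at -0.36, 0.21, -0.42 and -0.04.

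AP1S1 was the 1 called of 19 genes of the AP-1 and GGA clathrin adaptors (median 0.18). Its paralogue AP1S2 was at -0.37, clathrin heavy and light chain genes CLTC and CLTA at 0.11 and 0.19, and GGA3, ARF1 and GGA2 at 0.18, -0.08 and -0.30. DRG2 was called, while DRG1, ZC3H15 (the partner of DRG1) and RWDD1 (the partner of DRG2) stood at -0.24, -0.34 and 0.10. KDM6B was the 1 called of 13 genes of histone H3 lysine 27 methylation (median 0.02), in which the Polycomb genes SUZ12, EED, MTF2, AEBP2, RBBP4 and RBBP7 lay between -0.14 and 0.08. Of 499 ZNF genes tested 5 were called, where 0.215% of all genes were, and 44 had an unadjusted p under 0.05, as did 941 of all 17658 genes. Their median was 0.07. The 6 ZNF genes of highest CPM, ZNF503, ZNF367, ZNF664, ZNF280B, ZNF238 (now ZBTB18) and ZNF644, were not called.

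RPL36A was the 1 called of 86 ribosomal protein genes (median -0.24). The list leaned apart in the 2 libraries, with a median of -0.71 in replicate 1 and 0.14 in replicate 2, and it took 6.39% and 11.9% of their counts. RPL19 and RPS20 stood at -1.18 and -1.29 (adjusted p = 0.38 and 0.35), and in mir1180-3p they reached 57357 and 27669 CPM. RPL27, RPL15, RPS6 and RPS2 stood at 0.33, -0.32, -0.29 and 0.19. Of 31 RISC and miRNA machinery genes 0 were called by edgeR, and 0 had an unadjusted p under 0.05 (median -0.01). TNRC6A, which encodes GW182, stood at 8977 and 10740 CPM against 6310 to 16603 CPM (0.04 ± 0.26). Whether reads of the dominant-negative GW182 of the trap are among these was not tested. Of 47 regulators of cortical progenitors and neurogenesis 0 were called by edgeR and 2 had an unadjusted p under 0.05, with a median of -0.01. Targets of hsa-miR-1260b named in other studies were not called: SFRP1, DKK2 and SMAD4 stood at 0.09, -0.12 and 0.20.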

How the data were processed

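RNA recovered by RISC-trap from HEK 293 cells was sequenced in 16 libraries, of which 12 were used. The authors deposited raw counts per gene, 1 RefSeq mRNA and symbol to each entry, without normalisation. TopHat2 and hg19 are named in the submitters' processing notes. The sources used here do not give versions, the counting tool or its strand setting. Current symbols matched 18560 entries by accession to a GRCh38.p14 RefSeq table, which also gave gene order and overlap.

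Counts were tested in R 4.3.3 with edgeR 4.0.16 (filterByExpr, trimmed mean of M values, robust quasi-likelihood fit over 6 groups, two-sided). Errors are standard errors of the contrast, from the test statistic. Log2 CPM used a prior count of 2. DESeq2 1.42.0, other scalings, no filter, references of fewer miRNAs and each library left out were alternatives. The steps were tested on simulated data. Members and gene lists were chosen with earlier results of these data known.

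By rule, the 24 called genes of largest change with a mean of at least 5 CPM and both libraries above the other 10 were named, the 6 genes of lowest p below 0, up to 4 called and 6 high-CPM members of each list, and 5 genes in each direction between the 2 libraries with a mean of at least 20 CPM. Seed sites were not counted, since transcript sequences were not used here.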

Additional observations from a re-analysis of the deposited data

How the results depend on the processing

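The count of genes called for mir1260a-5p was 38 higher and 0 lower. It was 60 and 12 with DESeq2, 24 and 0 without mir550-3p in the reference, and 38 and 1 without mir3613-5p, the 1 being SNAI2. Leaving out 1 library at a time gave between 19 (without replicate 1 of mir1260a-5p) and 50 higher (without replicate 2), and between 0 and 1 lower, SNAI2 without replicate 1 of mir1271-5p. Of the 19 and 50 genes, 17 and 20 were among the 38. Only 3 reference miRNAs have libraries named Sample and a number, as those of mir1260a-5p are. With these alone, an alternative chosen after seeing the data, 20 genes were called higher and 0 lower, all 20 among the 38, and GDPD5 (2.05), CAPN5 (2.18), COL13A1 (1.68), KDM6B (1.80), ATP13A2 (1.55), CHCHD10 (1.60) and TYW3 (1.54) of the named genes were not called. Whether the names mark a batch is not given. With the replicate number as a block 42 were called higher and 0 lower, of which 37 were among the 38. The main fit did not take the numbers to pair the libraries. Of 15 pairs of miRNAs, 6 had a correlation of replicate differences over 0.1. These 6 were the pairs among mir1260a-5p, mir1271-5p, mir1301-3p and mir3613-5p (0.196 to 0.365). Whether the numbers mark a step shared by these miRNAs is not given. Upper-quartile scaling, DESeq2 size factors and no filter gave 41, 41 and 44 higher and 0 lower. Over 23 alternatives the 24 named called genes kept their direction, and 10 kept their call in each. The kept direction was all but certain, since the naming rule set both mir1260a-5p libraries above the other 10. DESeq2 gave no adjusted p for LCE2C, VPREB3, TNFRSF6B and NGB and did not call SYTL2. Depth limits 5 of the 38 genes most, those with a mean under 5 CPM, and the smallest change called was 1.22 on the log2 scale.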

Other observations

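Of the 5 called ZNF genes, ZNF547, ZNF17 and ZNF416 lie close together in gene order, within a run of zinc finger genes that was looked at after their values were seen. From 2 genes before ZNF547 to 2 after ZNF416 the table holds 14 genes, all tested, of which the 3 called ones set the bounds of the run. The 11 others, not called, had log2 fold changes above 0, as did 52.1% of all genes, from 0.08 for ZNF543 to 1.13 for ZNF772, and ZNF772 was the 1 of these with an unadjusted p under 0.05. ZNF772 stood at 32.9 and 31.7 CPM with mir1260a-5p and at most at 25.8 CPM in the other 10 libraries (adjusted p = 0.22). ZNF548, which lies between ZNF547 and ZNF17, stood at 0.89 (20.04 and 13.1 CPM against at most 16.7). VN1R1, a pheromone receptor gene in the same run, stood at 1.06 with 2.39 and 0.93 CPM. Zinc finger genes of such a run are alike in sequence and can share reads, so their values are not independent.

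Among the called genes outside the naming rule, ESX1, LCE2C and GK2 belong to tissues far from kidney cells. ESX1, LCE2C and TNFRSF6B had a mean under 5 CPM over the 12 libraries. GK2 had a mean of 10.4 CPM, and its replicate 2 did not lie above all other libraries. ESX1, a homeobox gene of placenta and testis, stood at 18.7 and 10.2 CPM against at most 3.47 CPM (3.44 ± 0.54, adjusted p = 0.0076). LCE2C, of the cornified envelope of skin, stood at 13.6 and 3.55 CPM against at most 5.06 CPM (3.55 ± 0.62), and GK2, a glycerol kinase of testis, at 35.7 and 15.3 CPM against at most 22.5 CPM (2.83 ± 0.47). TNFRSF6B, a soluble decoy receptor, stood at 4.85 and 3.04 CPM against at most 1.15 CPM (2.67 ± 0.44). In the fit lacking replicate 1 of mir1260a-5p none of these 4 was called (2.88 for ESX1, 2.23 for LCE2C, 2.04 for GK2 and 2.23 for TNFRSF6B). LCE2C was also not called without replicate 2 of mir550-3p (3.35) or replicate 1 of mir1180-3p (3.41). At higher levels, FRAT2, an inhibitor of the kinase GSK3 in Wnt signalling, stood at 234 and 209 CPM against at most 120 CPM (1.51 ± 0.25, adjusted p = 0.0084), and lost the call without replicate 1 (1.37). The last 3 of the called genes were WDR92 (now DNAAF10; 1.52 ± 0.29, 49.0 and 41.1 CPM against at most 23.6), PDCD10 (1.31 ± 0.24, 365 and 520 CPM against at most 260) and HIAT1 (now SLC71A1; 1.22 ± 0.23, 432 and 484 CPM against at most 281). These lost the call in several fits that lacked 1 library. For WDR92 these were either library of mir1260a-5p (1.34 and 1.65), mir1180-3p (1.48 and 1.58), mir3613-5p (1.53 and 1.48) or mir550-3p (1.58 and 1.48), or replicate 1 of mir1301-3p (1.51). For PDCD10 they were either library of mir1260a-5p (1.49 and 1.04) or mir550-3p (1.33 and 1.31), or replicate 2 of mir1180-3p (1.27). For HIAT1 they were either library of mir1260a-5p (1.25 and 1.14), mir1180-3p (1.26 and 1.19) or mir550-3p (1.20 and 1.25), replicate 1 of mir1301-3p (1.20) or replicate 2 of mir3613-5p (1.17).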
